A study of Mus musculus with 8 samples.

Results

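The growth hormone and insulin-like growth factor (IGF) axis was described in cultured hepatocytes, the parenchymal cells that make most secreted proteins of the liver, through 10 genes chosen by symbol: Ghr, Socs2, Igf1, Igfals, Igfbp1, Igfbp2, Igfbp3, Igfbp4, Igf1r and Igf2r. All 10 were found among the 24411 genes of the deposited table, and all 10 passed the filter on low counts. By RNA sequencing, 4 libraries of hepatocytes from mice whose Taf2 was conditionally deleted in hepatocytes were compared with 4 libraries of wild-type hepatocytes, all sampled 2 days after plating. Taf2 encodes a subunit of TFIID, a general transcription factor that recognises core promoters and nucleates the RNA polymerase II initiation complex. The labels name no other allele, agent or treatment, and the promoter that drives the recombinase, the age, sex and strain of the mice and the culture medium are not stated in the sources used. The labels also do not say that the libraries of a genotype came from separate animals, so p-values measure the spread between these libraries, which may be technical.

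Growth hormone from the pituitary binds its receptor on hepatocytes and acts through the kinase JAK2 and the transcription factor STAT5, which induces Igf1, Igfals and the feedback inhibitor genes Socs2 and Cish. IGF-1 leaves the liver bound to IGF-binding proteins. In blood most of it circulates in a complex with IGFBP-3 and the acid-labile subunit encoded by Igfals, whereas Igfbp1 is a hepatocyte gene that insulin represses.

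In the knockout the binding protein genes went in opposite directions: Igfbp2 and Igfbp1 were higher, at 2.93-fold and 2.29-fold the wild-type level, and Igfbp3 and Igfbp4 were lower, at 55.7% and 82.6% of it. The IGF-1 receptor gene Igf1r was 2.17-fold higher from a very low level. The hormone gene Igf1 and the receptor gene Ghr were slightly higher, Socs2 and Igfals slightly lower, and Igf2r did not pass the test. In total, 5 of the 10 genes were higher and 4 were lower at an adjusted p under 0.05. Across the 12122 genes tested, 61.4% passed, 30.2% higher and 31.2% lower in the knockout. Levels are relative to the other genes of a library, so a change in RNA common to all genes would not show. The 10 genes had a median log2 fold change of 0.041 and a median absolute change of 0.25, against -0.0035 and 0.22 over all genes tested. The absolute log2 fold change reached 1 in 3 of the 10.

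Estimated counts summed to between 20287023 and 23933589 per knockout library and between 18947059 and 22824568 per wild-type library. Taf2 had 13.9, 15.7, 13.4 and 12.7 CPM (counts normalised to TMM-scaled library size) in knockout replicates 1 to 4, against 42.5, 46.4, 45.2 and 42.2 CPM in wild-type replicates 1 to 4. The genotypes did not overlap, and each library matched its label. The level in the knockout was 31.7% of that in the wild type (log2 fold change -1.66 with a standard error, SE, of 0.061 and an edgeR adjusted p = 9.03e-15). The count covers the whole gene, and no source used here states which exons were deleted. All 10 hepatocyte markers were detected and tested, and 6 were higher, 2 lower and 2 not past the threshold. Alb (albumin) was at 55183 ± 3032 CPM in the knockout and 38035 ± 1777 CPM in the wild type (SD, n = 4 each), and Cps1, the urea cycle enzyme gene, at 441 ± 35.1 CPM in the knockout and 694 ± 27.2 CPM in the wild type.

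Markers of other liver cells were also higher in the knockout libraries: 11 of 11 tested macrophage markers, 11 of 11 endothelial markers and 11 of 12 stellate cell and fibroblast markers passed the test upwards, and 0 passed it downwards. Summed CPM ran from 237 to 267 in the knockout and from 87.8 to 117 in the wild type for the macrophage list. For the endothelial list it ran from 176 to 182 in the knockout and from 67.8 to 76.2 in the wild type, and for the stellate list from 185 to 199.8 in the knockout and from 90.5 to 93.4 in the wild type. Cholangiocyte markers were mixed, with 2 of 5 tested higher and 3 lower, and summed to 153 to 182 CPM in the knockout and 118 to 130.2 CPM in the wild type. Cd68 held the largest part of the macrophage sum, at a mean of 172 CPM in the knockout and 84.1 CPM in the wild type. Reln held the largest part of the stellate sum, at 102 CPM in the knockout and 61.7 CPM in the wild type. Cd68 and Reln changed by less (log2 fold change 1.04 and 0.72) than the median tested marker of their lists (2.53 and 2.09). Defining markers such as C1qb, Pecam1 and Dcn were at lower levels. C1qb (macrophages) was at 14.05 ± 0.68 CPM in the knockout and 2.14 ± 0.23 CPM in the wild type. Pecam1 (endothelium) was at 28.3 ± 1.72 CPM in the knockout and 6.93 ± 0.47 CPM in the wild type, and Dcn (stellate cells) at 26.4 ± 0.65 CPM in the knockout and 3.46 ± 0.53 CPM in the wild type. Timd4, Clec4g, Epcam and Cftr, markers of the macrophage, endothelial and cholangiocyte lists, were below the filter on low counts. Their part in the results below was not tested. In bulk libraries fewer cells of a type and less RNA per cell cannot be told apart.

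Ghr, which encodes the growth hormone receptor, had 70.2, 68.8, 72.8 and 71.6 CPM in knockout replicates 1 to 4, against 57.9, 63.8, 62.3 and 62.03 CPM in wild-type replicates 1 to 4. Every knockout library was above every wild-type library. The difference was small beside those of Igfbp1, Igfbp2 and Igfbp3 (log2 fold change 0.21, SE 0.038, with edgeR adjusted p = 8.89e-05). The absence of overlap was shared by 8 of the 10 genes and by 54.7% of all genes tested, and for each of these 8 an exact two-sided permutation test of 4 against 4 values gave p = 0.0286, the lowest value that 4 against 4 can reach.

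Socs2 encodes a suppressor of cytokine signalling that restrains the growth hormone receptor. It had 18.7, 19.7, 19.5 and 18.2 CPM in knockout replicates 1 to 4, against 21.6, 23.3, 22.2 and 21.5 CPM in wild-type replicates 1 to 4. Here every knockout library was below every wild-type library (log2 fold change -0.22, SE 0.057, with edgeR adjusted p = 0.00232). Receptor and feedback gene thus went opposite ways by a similar size.

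Igf1 had 201, 212, 201 and 215 CPM in knockout replicates 1 to 4, against 179, 199, 186 and 192 CPM in wild-type replicates 1 to 4. The genotypes did not overlap, but the nearest libraries were 200.9 CPM in the knockout and 198.7 CPM in the wild type (log2 fold change 0.13, SE 0.039, with edgeR adjusted p = 0.00629). The count pools 5 transcripts, so promoters and splice forms of Igf1 could not be separated.

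Igfals had 26.8, 27.1, 24.9 and 24.9 CPM in knockout replicates 1 to 4, against 29.5, 30.9, 31.3 and 25.0 CPM in wild-type replicates 1 to 4. Wild-type replicate 4 lay within the knockout range and the other wild-type libraries above it, so the genotypes overlapped. The gene passed narrowly (log2 fold change -0.17, SE 0.065, with edgeR adjusted p = 0.0295), whereas the exact two-sided permutation test gave p = 0.0857. The call ended in 7 of 17 alternative analyses, among them upper-quartile scaling (edgeR adjusted p = 0.0551) and thinning to the smallest library total (edgeR adjusted p = 0.076), in a range from 0.00163 to 0.0859. Leaving out knockout replicate 3 or 4, or wild-type replicate 1, 2 or 3, gave edgeR adjusted p = 0.0785, 0.082, 0.0634, 0.0859 and 0.0841 in that order, and leaving out wild-type replicate 4 gave the lowest value of that range.

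**Figure D1:**
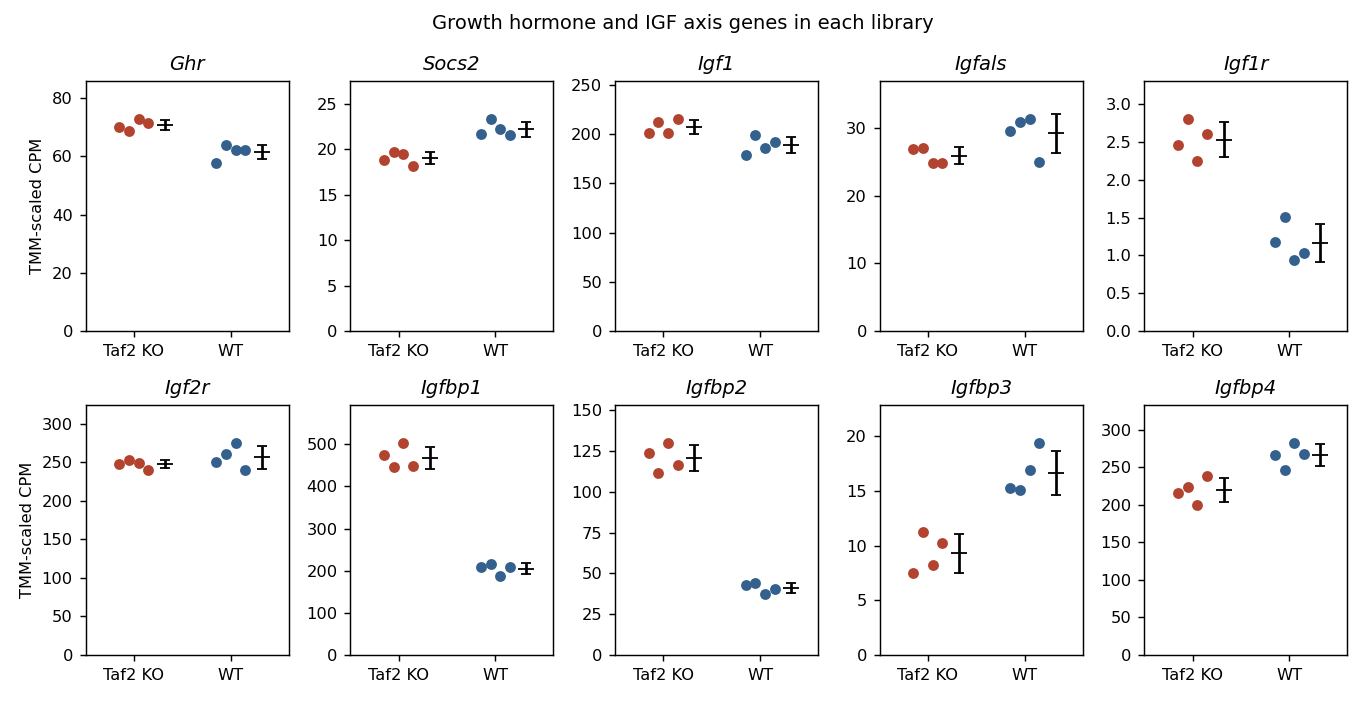
TMM-scaled CPM of each of the 10 genes in the 4 Taf2 knockout and 4 wild-type libraries, with points for libraries and bars for the mean ± SD of a genotype. Each panel has its own linear axis from 0. The genotypes do not overlap except for Igfals and Igf2r, and the widest separations are those of Igfbp1 and Igfbp2.

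Among the binding protein genes were the largest rises of the 10 genes, in Igfbp2 and Igfbp1, and the largest fall, in Igfbp3. Igfbp1 and Igfbp3 are neighbours on chromosome 11, at 7197787 to 7202546 and 7206086 to 7215498 (build GRCm38.p6, the mm10 assembly). They are transcribed towards each other and their annotated ends lie 3539 bases apart. Their promoter windows are shown with those of Igfbp2 and Igfbp4, as the genes that rose and fell most clearly among the binding proteins, and with that of Igfals, which holds letters of a STAT5 element. Each runs from 250 bases before to 50 bases after an annotated start (RefSeq, GRCm38.p6), 5′ to 3′ on the gene's strand. Capitals mark matches, on either strand, to the letters of a TATA box (TATAAA), a STAT5 element (TTCNNNGAA) or an insulin response element core (CAAAACA). The windows are chr11:7197537-7197836 (+) for Igfbp1, chr1:72824230-72824529 (+) for Igfbp2, chr11:7213874-7214173 (-) for Igfbp3, chr11:99040994-99041293 (+) for Igfbp4 and chr17:24877981-24878280 (+) for Igfals.
Igfbp1: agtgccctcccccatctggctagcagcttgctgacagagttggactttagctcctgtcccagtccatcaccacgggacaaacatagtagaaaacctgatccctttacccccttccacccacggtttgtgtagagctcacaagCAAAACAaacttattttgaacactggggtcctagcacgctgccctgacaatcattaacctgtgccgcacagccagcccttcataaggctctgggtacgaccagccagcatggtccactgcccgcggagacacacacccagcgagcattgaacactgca
Igfbp2: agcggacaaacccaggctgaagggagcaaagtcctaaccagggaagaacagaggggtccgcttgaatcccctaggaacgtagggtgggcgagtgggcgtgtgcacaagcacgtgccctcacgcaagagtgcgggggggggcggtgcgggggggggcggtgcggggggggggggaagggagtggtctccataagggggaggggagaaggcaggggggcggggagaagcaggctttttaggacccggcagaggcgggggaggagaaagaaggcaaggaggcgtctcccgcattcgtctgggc
Igfbp3: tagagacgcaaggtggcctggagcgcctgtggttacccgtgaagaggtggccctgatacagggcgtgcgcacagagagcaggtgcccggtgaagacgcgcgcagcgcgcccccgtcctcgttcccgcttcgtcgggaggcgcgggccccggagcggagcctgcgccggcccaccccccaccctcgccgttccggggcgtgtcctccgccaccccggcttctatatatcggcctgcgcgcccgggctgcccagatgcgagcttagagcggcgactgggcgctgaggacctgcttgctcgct
Igfbp4: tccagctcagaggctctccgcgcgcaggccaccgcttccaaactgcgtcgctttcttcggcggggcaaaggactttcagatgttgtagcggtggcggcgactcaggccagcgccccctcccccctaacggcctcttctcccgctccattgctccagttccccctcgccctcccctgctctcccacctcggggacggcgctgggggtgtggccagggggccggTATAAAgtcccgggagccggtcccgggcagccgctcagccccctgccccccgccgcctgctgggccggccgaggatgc
Igfals: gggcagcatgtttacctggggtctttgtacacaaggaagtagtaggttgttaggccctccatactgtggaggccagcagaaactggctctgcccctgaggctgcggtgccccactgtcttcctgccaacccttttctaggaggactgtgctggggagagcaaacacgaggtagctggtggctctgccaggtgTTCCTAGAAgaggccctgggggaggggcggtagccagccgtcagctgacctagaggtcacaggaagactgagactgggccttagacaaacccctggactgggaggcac

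Igfbp1 held the insulin response element core 108 bases before its start, letters found in 6.28% of the 32851 promoter windows in the table. Igfbp4 held TATAAA 28 bases before its start (13.6% of all windows), and Igfals the STAT5 letters 58 bases before its start (8.3%). The windows of Igfbp2 and Igfbp3 held none of these letters. Only exact letters were searched, so a near match to TATAAA, such as tatata in the window of Igfbp3, was not marked. The longer HNF1 letters, GTTAAT followed by any base and ATTAAC, also searched on both strands, were in none of the 9 members' windows and in 3 of all windows. Letters this rare would seldom be met in 9 windows, so their absence says little. A near match, such as gacaatcattaac in the window of Igfbp1, was not counted. The CpG count was 8 in the window of Igfbp1, 18 for Igfbp2, 37 for Igfbp3 and 27 for Igfbp4, with a median of 7 over all windows. It was 6 for Igf1, 8 for Ghr and 34 for Igf2r. The highest count, 48, was that of Igf1r, which was higher in the knockout. The lowest, 4, was that of Igfals, which was lower by a call that not all alternatives kept. Apart from Igf1r and Igfals, genes with a window that were called higher had counts of 6 to 18, and those called lower 27 and 37. Whether the count goes with the direction of change was not tested. A match describes letters only. A window was found for 9 of the 10 genes. Of the windows not printed, that of Ghr held TATAAA on the opposite strand 188 bases before its start, and those of Igf1, Igf1r and Igf2r held none of the letters searched. The start used for the window lay 218 bases from the nearest annotated start of a counted transcript for Igf1, and 570 bases for Igf1r. For these genes the letters and CpG counts describe the windows only.

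Igfbp1, the insulin-repressed and fasting-induced binding protein of the hepatocyte, had 474, 447, 504 and 449 CPM in knockout replicates 1 to 4, against 209.9, 215, 187 and 208 CPM in wild-type replicates 1 to 4. Even the lowest knockout library was well above the highest wild-type library (log2 fold change 1.19, SE 0.046, with edgeR adjusted p = 1.78e-14). An absolute change no larger than this was seen in 92.4% of genes tested.

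Igfbp2, a second binding protein made by hepatocytes, had 124, 112, 129.98 and 117 CPM in knockout replicates 1 to 4, against 42.7, 44.2, 37.3 and 40.6 CPM in wild-type replicates 1 to 4. It was the largest change of the 10 genes (log2 fold change 1.55, SE 0.052, with edgeR adjusted p = 2.51e-15), and 94.8% of genes tested changed by no more. Igfbp1 and Igfbp2 also followed each other across libraries: both were highest in knockout replicate 3 and lowest in wild-type replicate 3.

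Igfbp3 encodes the main IGF carrier of blood, which in rat liver is made largely by non-parenchymal cells. It had 7.45, 11.2, 8.21 and 10.2 CPM in knockout replicates 1 to 4, against 15.2, 15.1, 16.9 and 19.4 CPM in wild-type replicates 1 to 4. The knockout libraries were all lower (log2 fold change -0.85, SE 0.11, with edgeR adjusted p = 9.14e-07), in the same libraries in which macrophage, endothelial and stellate markers were higher. Counts behind these values ran from 176 to 225 in the knockout and from 311 to 414 in the wild type, and the coefficient of variation in the knockout, 18.9%, was the highest of the 10 genes in that genotype.

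Igfbp4 encodes a binding protein that inhibits IGF action and is cleaved by the protease PAPP-A. It had 216, 224, 199.8 and 238 CPM in knockout replicates 1 to 4, against 266, 247, 282 and 268 CPM in wild-type replicates 1 to 4. The genotypes did not overlap, though knockout replicate 4 came close to wild-type replicate 2 (log2 fold change -0.28, SE 0.048, with edgeR adjusted p = 5.43e-05).

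**Figure D2:**
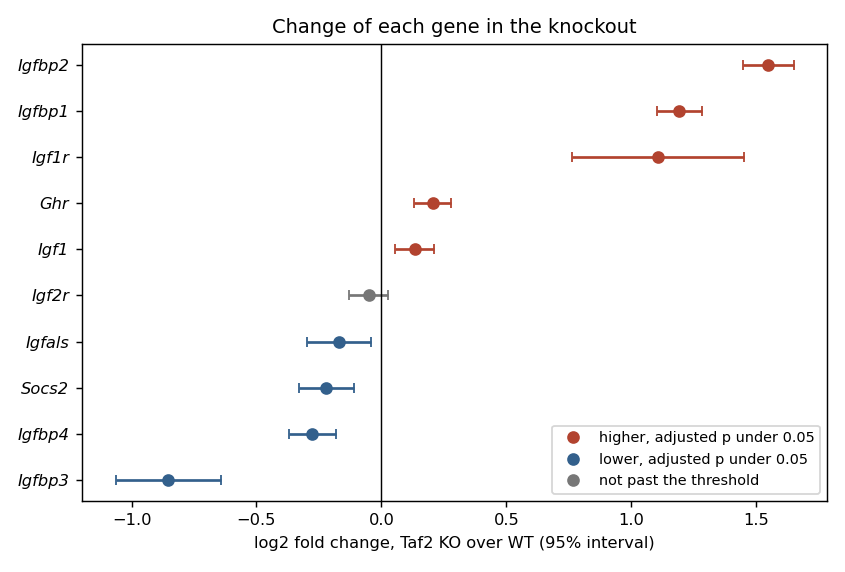
Log2 fold change of each gene, Taf2 knockout over wild type, with an approximate 95% interval (1.96 SE each way) and colour for the edgeR call. Igfbp2, Igfbp1 and Igf1r lie above 1, Igfbp3 at -0.85, and the other genes within 0.28 of 0.

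Because transcripts differ in length, levels of different genes were compared per kilobase of transcript. The summed level of Igfbp1 to Igfbp4 was 461 ± 18.95 CPM per kb in the knockout and 242 ± 6.91 CPM per kb in the wild type (SD, n = 4 each). Igfbp1 made up 66.7% ± 1.08 of this sum in the knockout and 55.4% ± 1.89 in the wild type, and Igfbp2 20.02% ± 0.54 in the knockout and 13.01% ± 0.66 in the wild type. The share of Igfbp4 was 12.5% ± 1.35 in the knockout and 28.7% ± 2.30 in the wild type, and that of Igfbp3 0.84% ± 0.19 in the knockout and 2.84% ± 0.36 in the wild type. The genotypes did not overlap for any of these 4 shares. Per length, the binding protein sum was between 5.59 and 6.47 times the Igf1 level in knockout libraries and between 3.31 and 3.68 times that level in wild-type libraries. These ratios repeat the changes of the single genes and were not tested.

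**Figure D3:**
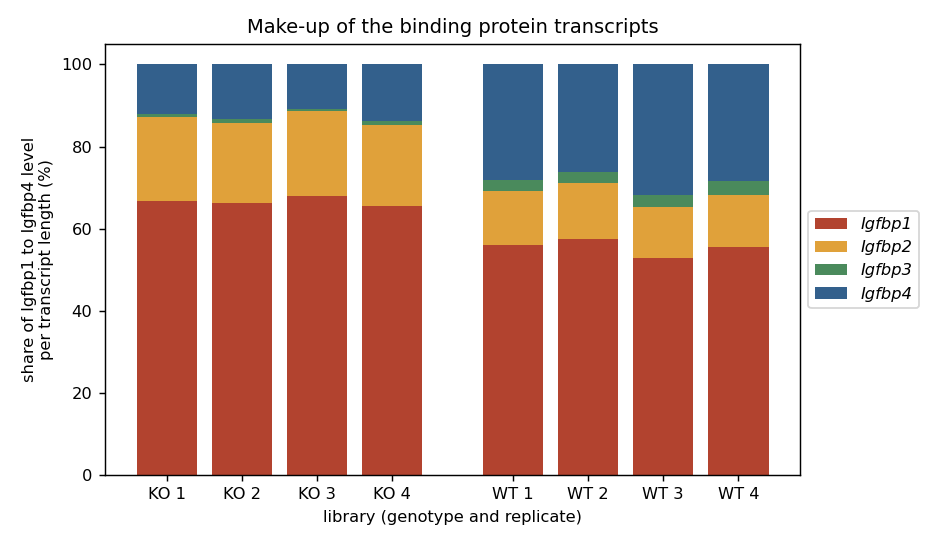
Share of each of Igfbp1 to Igfbp4 in their summed CPM per kilobase, in percent, 1 bar per library with knockout libraries on the left. Igfbp1 and Igfbp2 fill more of the bar in the knockout, and Igfbp4 takes 10.7% to 13.8% there, against 26.3% to 31.8% in the wild type.

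Igf1r, the tyrosine kinase receptor for IGF-1, is known to be scarce in adult hepatocytes. It had 2.45, 2.80, 2.25 and 2.61 CPM in knockout replicates 1 to 4, against 1.17, 1.51, 0.94 and 1.03 CPM in wild-type replicates 1 to 4. All knockout libraries were higher (log2 fold change 1.11, SE 0.18, with edgeR adjusted p = 1.69e-05). These values rest on 52 to 58 counts per knockout library and 18 to 31 per wild-type library, and the SE was the largest of the 10 genes. The macrophage, endothelial and stellate marker sums given above were higher in the same libraries.

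Igf2r, the mannose 6-phosphate receptor that also takes up and clears IGF-2, had 248, 253, 249.6 and 239.6 CPM in knockout replicates 1 to 4, against 250.02, 260.2, 275 and 240.3 CPM in wild-type replicates 1 to 4. The ranges overlapped, with wild-type replicates 2 and 3 above every knockout library. The difference did not pass the test (log2 fold change -0.051, SE 0.040, approximate 95% interval -0.13 to 0.028, with edgeR adjusted p = 0.287). The sources used here do not state whether strand was used in counting, so reads of the antisense RNA that overlaps Igf2r, Airn, may be included.

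In knockout libraries the level per kilobase fell in the order Igfbp1 (307 CPM per kb), Igfbp2 (92.3), Igf1 (77.3), Igfbp4 (57.3), Igf2r (27.8), Ghr (26.3), Socs2 (10.1), Igfals (9.87), Igfbp3 (3.83) and Igf1r (0.22). In wild-type libraries Igf1 (70.5 CPM per kb) and Igfbp4 (69.4) came directly after Igfbp1 (134), and Igfbp2 (31.5) followed them beside Igf2r (28.9). The other genes kept their order, so the genotypes differed in the place of Igfbp2 relative to Igf1 and Igfbp4. Neighbours whose library ranges overlapped were Igf2r with Ghr and Socs2 with Igfals in the knockout. In the wild type they were Igf1 with Igfbp4, Igfbp2 with Igf2r, and Socs2 with Igfals. Lengths are means of the annotated transcripts and do not follow which isoform the cells use.

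The remaining machinery of the pathway was read from a list of 33 genes, of which 24 passed the filter on low counts. Of these 24, 10 were higher and 8 lower in the knockout, with a median log2 fold change of -0.034, against 30.2% higher and 31.2% lower among all genes. The signalling genes Jak2, Stat5a and Stat5b did not pass the test. Jak2 was at 30.3 ± 2.03 CPM in the knockout and 30.7 ± 1.42 CPM in the wild type, and Stat5b at 49.03 ± 1.34 CPM in the knockout and 49.1 ± 2.16 CPM in the wild type (SD, n = 4 each; edgeR adjusted p = 0.747 and 0.989). The approximate SE of both differences was at most 0.055 on the log2 scale, and reads of Stat5b are in part shared with Stat5a. Of this group of 10 genes 4 rose, Socs1 at under 1 CPM and Cish with 18.1 ± 0.98 CPM in the knockout and 11.7 ± 0.51 CPM in the wild type (log2 fold change 0.63, SE 0.066), Socs3 with 8.67 ± 0.65 CPM in the knockout and 4.62 ± 0.90 CPM in the wild type (log2 fold change 0.91, SE 0.11), and the tyrosine phosphatase gene Ptpn2 (log2 fold change 0.51, SE 0.057). A second phosphatase gene, Ptpn1, did not pass (log2 fold change -0.045, SE 0.045, with edgeR adjusted p = 0.409). Cish and Socs2, both known STAT5 targets, thus moved in opposite directions. The adaptor gene Sh2b1, whose product enhances JAK2 activity, fell (42.5 ± 1.38 CPM in the knockout and 50.2 ± 2.02 CPM in the wild type, log2 fold change -0.24, SE 0.043).

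Below the IGF-1 and insulin receptors the adaptors were split. Irs2 was higher, at 16.1 ± 1.26 CPM in the knockout and 9.21 ± 0.91 CPM in the wild type (log2 fold change 0.81, SE 0.081), and Irs1 was lower, at 5.99 ± 0.87 CPM in the knockout and 9.33 ± 1.21 CPM in the wild type (log2 fold change -0.65, SE 0.11). Both encode docking proteins for these receptors. Of the related adaptor genes, Grb10 was higher (6.80 ± 0.63 CPM in the knockout and 4.55 ± 0.64 CPM in the wild type) and Grb14, which encodes an inhibitor of the insulin receptor, was lower (33.98 ± 0.78 CPM in the knockout and 53.9 ± 1.35 CPM in the wild type, edgeR adjusted p = 2.03e-11). Insr, the insulin receptor gene and the most abundant gene of this group by CPM, was at 115 ± 4.81 CPM in the knockout and 129 ± 8.22 CPM in the wild type (log2 fold change -0.17, SE 0.045). In the group of receptors and adaptors 3 of 9 tested genes were higher and 5 lower.

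Other ligands and binding proteins were scarce. The fetal ligand gene Igf2 had 0 to 2 counts per knockout library and 5 to 10 per wild-type library, and was not tested. Igfbp5 had 5, 6, 7 and 19 counts in knockout replicates 1 to 4 and 0 counts in each wild-type library, where 3 counts, the limit that a count of 0 allows, would be 0.13 to 0.16 CPM. Igfbp7, which endothelial and stellate cells express, was higher (8.66 ± 0.56 CPM in the knockout and 7.42 ± 0.26 CPM in the wild type, log2 fold change 0.22, SE 0.080). Among genes for binding protein proteases and their inhibitors, Stc1, which encodes a stanniocalcin that inhibits PAPP-A, was higher at few counts, with 25 to 52 per knockout library and 4 to 8 per wild-type library (edgeR adjusted p = 1.29e-07). Htra1, a serine protease gene, had 13 to 24 counts per knockout library and 0 to 2 per wild-type library (edgeR adjusted p = 5.31e-07), so no size is given for it. Of the IGF2 mRNA-binding protein genes both tested were lower, Igf2bp2 at 3.47 ± 0.44 CPM in the knockout and 5.64 ± 0.52 CPM in the wild type, and Igf2bp1 at 1 to 3 counts per knockout library and 22 to 26 per wild-type library.

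Liver genes known to depend on growth hormone were called in both directions. Of 26 listed, 19 were tested, and 8 were higher and 8 lower, with a median log2 fold change of -0.023. Among all genes tested 30.2% were higher and 31.2% lower. The list pools male-biased and female-biased genes, and each of these parts also held calls in both directions. Its genes were not sorted by whether growth hormone raises or lowers them, so the mixed count gives no reading of growth hormone action. The count of lower genes ran from 6 to 8 over the alternatives, and was 6 with RLE or upper-quartile scaling, with DESeq2, with the stricter low-count filter, and without knockout replicate 4 or wild-type replicate 2. Among male-biased genes 7 of 16 were higher and 7 lower. Bcl6, the repressor that opposes STAT5, was higher (26.8 ± 0.68 CPM in the knockout and 15.4 ± 0.60 CPM in the wild type, log2 fold change 0.80, SE 0.056), and Cyp7b1, an oxysterol hydroxylase gene, was lower (22.6 ± 2.08 CPM in the knockout and 50.9 ± 2.23 CPM in the wild type, log2 fold change -1.17, SE 0.058). The major urinary protein genes differed from each other. Mup20 was at 8557 ± 328 CPM in the knockout and 5382 ± 263 CPM in the wild type. Mup7 was at 2461 ± 64.5 CPM in the knockout and 4531 ± 324 CPM in the wild type. Reads of both genes are in part shared with other genes, as their expected counts were not whole in any library. Of 10 female-biased genes 3 were tested: Cyp17a1, a steroid hydroxylase gene, was higher (22.04 CPM in the knockout and 7.77 CPM in the wild type), Sult1e1, the estrogen sulfotransferase gene, was lower (log2 fold change -1.59, SE 0.096), and Prlr, the prolactin receptor gene, did not pass (log2 fold change -0.21, SE 0.13, edgeR adjusted p = 0.152).

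**Figure D4:**
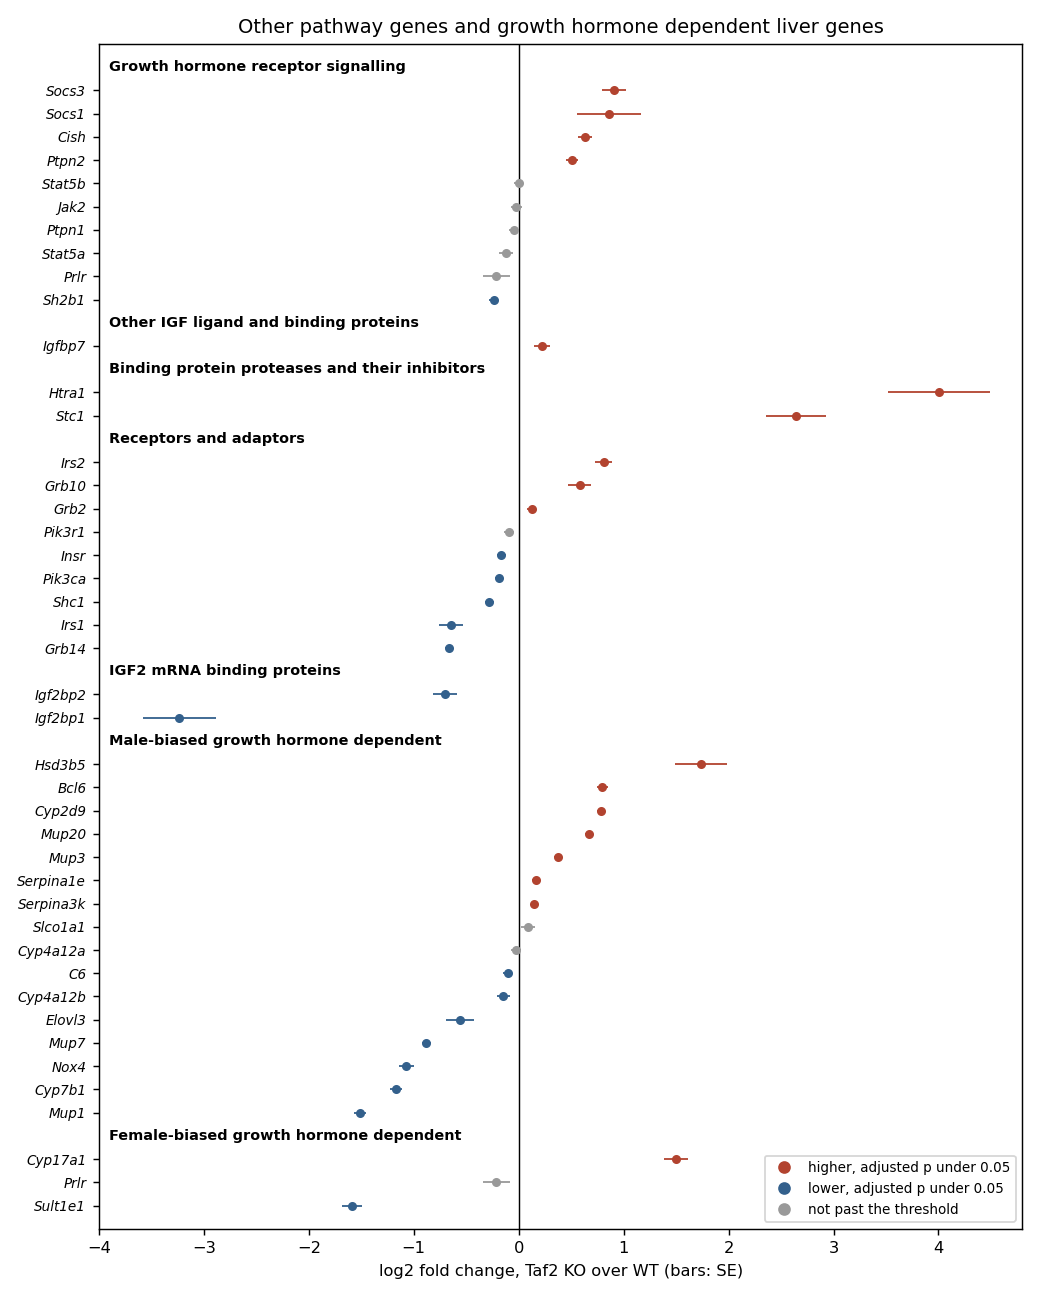
Log2 fold change, Taf2 knockout over wild type, of the tested genes of the pathway and growth hormone dependent lists, 1 row per gene within its list, with bars for the SE and colour for the edgeR call. Every list with at least 9 tested genes holds calls in both directions, and the values plotted for Htra1 and Igf2bp1 rest on few counts and depend on the prior count of the fit.

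Genes most like 4 of the axis genes were sought by Pearson's r of log2 CPM over the 8 libraries, given as a description. The genotypes dominate this measure where they differ much, and scatter between libraries enters it where they differ little. Igfbp2 itself was the gene most like Igfbp1 among all genes tested (r = 0.9994), followed by Efna1, an ephrin ligand gene, and Dcaf17 (r = 0.9991 each). The genes nearest to Ghr were Dek (0.9937), Map3k2 and Runx1 (0.9884 each). Those nearest to Igf1 were Filip1l (0.982), Ppp1r8 and Nxt2 (0.98 and 0.979), and to Igfals Dync2h1 (0.9695), Supt7l and Ccdc88b. Ppp1r8, Nxt2, Dync2h1, Supt7l and Ccdc88b did not pass the test (edgeR adjusted p = 0.136, 0.0602, 0.205, 0.198 and 0.128). As for Igfals, wild-type replicate 4 was the lowest wild-type library for Dync2h1, Supt7l and Ccdc88b. All genes were compared over the same 8 libraries, so any difference in genotype, culture or sequencing between libraries acts on both genes of a pair.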

How the data were processed

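Total RNA of 8 libraries was sequenced on an Illumina HiSeq3000, per the labels' protocols. The authors deposited RSEM expected counts per gene for mm10, per the submitters' processing notes. No source used here states the aligner, versions or strand setting. The 8 columns named as the library names were used, and 8 columns that match no sample were not. Of the deposited values 2.85% were not whole, none of them of the 10 genes. Expected counts were rounded, filtered with filterByExpr (minimum count 10, total 15; 12122 genes left), TMM-scaled and tested by genotype with the quasi-likelihood test of edgeR (edgeR 4.0.16, R 4.3.3), adjusted over all genes by Benjamini-Hochberg at 0.05. The SE is the size of the log2 fold change over the root of the F statistic. The fit was tested on simulated data.

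Depth sets precision: library totals are in the report, and 3 counts equal 0.13 to 0.16 CPM. Replicate pairs differed by more than sampling noise (chi-square per degree of freedom 3.18 to 8.62). The coefficient of variation beyond counting noise, fitted in common to all genes, was 4.57%. Each library was treated as 1 replicate, but these values do not show that libraries came from separate animals. Transcript lengths are from GENCODE M21 (for Igf1, 4 of 5 transcripts). The genes and lists were chosen with earlier results of these data known. Named genes are the 10 genes, Taf2, up to 3 called genes per direction and the most abundant of each list (a selection of these is printed), and the 3 genes most like Igf1, Igfals, Igfbp1 and Ghr; Jak2, Stat5a, Socs1, Ptpn1, Cps1, Prlr, Igf2, Igfbp5 and markers below the filter were named after their values were seen. Alternatives were RLE, upper-quartile and no scaling, DESeq2 1.42.0, limma-voom (limma 3.58.1), other low-count filters, thinning, a replicate block and leaving out each library. Cell marker lists were counted, not tested as sets; of the erythroid list 1 of 6 genes, Alas2, was tested, and it was lower, with 3 at 0 in all libraries.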

Additional observations from a re-analysis of the deposited data

Results flagged for a closer look

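Among the 58 genes named or eligible to be named, 116 groups of 4 libraries were screened for a library far from the other 3 of its genotype (Dixon's test at 95%), and 9 stood out; chance alone marks about 1 in 20 groups. None was in the 10 axis genes or Taf2. Below other libraries of their genotype were knockout replicate 2 for Igf2bp1 (0.04996 CPM, the others 0.127 to 0.142), and in the wild type replicate 1 for Stat5b (45.9 CPM, the others 49.9 to 50.5), replicate 2 for Grb2 (65.96 CPM, the others 70.8 to 71.2), replicate 3 for Mup20 (4991 CPM, the others 5460 to 5554) and replicate 4 for the stellate marker Reln (58.0 CPM, the others 62.65 to 63.2). Above the others were knockout replicate 3 for the cholangiocyte marker Sox9 (78.1 CPM, the others 71.5 to 72.5), and in the wild type replicate 3 for Igf2bp1 (1.36 CPM, the others 1.03 to 1.07) and replicate 4 for Ptpn2 (25.4 CPM, the others 22.75 to 22.97) and Shc1 (111 CPM, the others 99.2 to 99.5).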

How the results depend on the processing

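Over 17 alternatives, 19 results gave 323 values, of which 316 kept their direction and their side of the threshold or, for counts, stayed within 1.5 times the count reported. The other 7 all concerned Igfals, whose log2 fold change was -0.15 with upper-quartile scaling and -0.15 after thinning, neither past the threshold, and ran from -0.24 to -0.14 when each library was left out. Leaving out wild-type replicate 4, which had the lowest wild-type value, gave -0.24. In all 17 alternatives 5 of the 10 genes were higher, and 3 or 4 were lower. Igf2r passed in none, at adjusted p from 0.0903 to 0.734. The titles number the replicates 1 to 4 in both genotypes, but same-numbered libraries did not deviate together (correlations of deviations -0.069 to 0.011). With a replicate block 3666 genes were higher and 3771 lower, 5 and 4 of them among the 10 genes, and 0 of the 4 knockout libraries correlated best with its own number. RLE, upper-quartile and library-total scaling shifted the median of all genes by 0.0054, 0.024 and -0.028 on the log2 scale. Depth limits Igf1r, Igf2, Igfbp5, Htra1 and Igf2bp1, which have few counts per library.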
